A study of Drosophila melanogaster with 6 samples.

Results

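UDP-glycosyltransferases are described here in whole larvae of Drosophila melanogaster that ate a diet with or without palm fruit juice. The members were all array rows whose platform annotation gives exactly 1 gene symbol, and whose symbol starts with Ugt followed by a digit. That rule found 35 genes with 1 row each, of 13401 genes with such a row, and all 35 matched a RefSeq gene by identifier. It used no measured value. The RefSeq gene table of Release 6 plus ISO1 MT held no further protein-coding gene with a symbol of this form.

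Larvae of the strain w1118 were raised for 5 days from the egg on a semi-purified diet with 4 ml of palm fruit juice, a phenolic-rich preparation of oil palm fruit, or on the semi-purified diet alone. Each group had 3 arrays, and every array measured whole-body RNA pooled from 3 to 4 larvae, so a change within a single organ is diluted by the rest of the body and fewer cells of a type cannot be told apart from less RNA per cell. The labels give the phenolic dose per kg and per kcal of diet in figures that cannot both hold, and no dose was used. The deposited log2 values had array medians of 3.60 to 3.77. Pearson correlations over the tested genes spanned 0.955 to 0.975 within the juice group, 0.959 to 0.981 within the control group and 0.940 to 0.984 for a juice array with a control array.

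UDP-glycosyltransferases sit in the membrane of the endoplasmic reticulum and move a sugar from a UDP-sugar onto a small lipophilic molecule, which becomes more soluble and easier to excrete. Insects mostly use UDP-glucose as the donor, where vertebrate liver enzymes mostly use UDP-glucuronic acid. Plant phenolics and other food toxins, pigments, cuticle precursors, hormones and odorants are among the acceptors known in insects, and midgut, fat body, Malpighian tubules (the insect kidney) and sense organs are known sites of action. The first number in a symbol names the family and the letter the subfamily, so Ugt37A2 and Ugt37A3 are of 1 subfamily.

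Many of the genes lie side by side. In the RefSeq order, 23 of the 35 fell into 6 groups in which neighbouring members had at most 3 other protein-coding genes between them. A run of 10 genes, once named Ugt86D with a further letter, held Ugt35C1, Ugt302K1, Ugt302E1, Ugt302C1, Ugt35E1, Ugt35E2, Ugt35B1, Ugt35A1, Ugt304A1 and Ugt303A1 in that order. Smaller runs were Ugt37C2, Ugt37E1 and Ugt37D1, then Ugt36F1, Ugt36D1 and Ugt36E1, then Ugt303B3, Ugt303B1 and Ugt303B2, and the pairs Ugt49B1 with Ugt49C1 and Ugt37A2 with Ugt37A3. Whether probes of such sequence-related neighbours read each other's RNA was not tested.

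On the array, 21 of the 35 members had a mean over all 6 arrays of at least 2.63 on the log2 scale, the value below which the dimmest 25% of all genes lie, and these 21 were tested. The closest member above that limit was Ugt36A1, with a mean of 2.73, and the closest below it was Ugt317A1, with 2.628. The other 14 members had single values between 1.88 and 2.88 in every pool of both groups. They were 4 of the 6 members of family 35 (Ugt35B1, Ugt35D1, Ugt35E1 and Ugt35E2), 5 of the 8 of family 37 (Ugt37A1, Ugt37B1, Ugt37C1, Ugt37C2 and Ugt37E1), and Ugt36F1, Ugt49B2, Ugt302E1, Ugt307A1 and Ugt317A1. Ugt35B1, known for its enrichment in the adult antenna, was among them, at 2.33, 2.15 and 2.20 in juice pools and 2.12, 2.19 and 2.41 in control pools. Since a log2 value depends on the probes of each row, the values are compared between pools and not between genes.

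**Figure D1:**
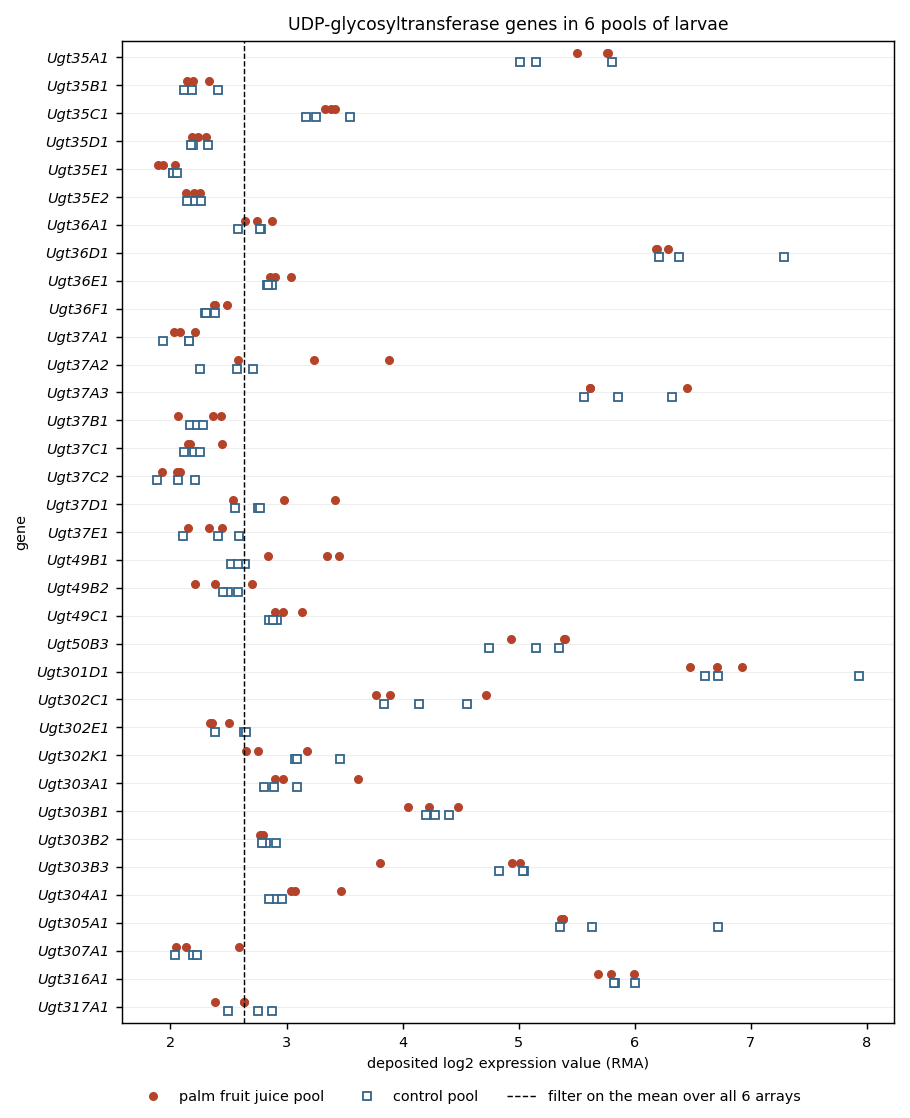
Deposited log2 expression value (horizontal axis) of each of the 35 genes (rows, by family number) in 3 palm fruit juice pools (filled circles) and 3 control pools (open squares), 1 point a pool. The dashed line at 2.63 is the limit on the mean over all 6 arrays, and most genes show both groups in the same narrow range.

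The comparison asked which of these genes differed in larvae given juice. None of the 21 tested members passed limma's test at an adjusted p under 0.05, and the same held for all 10051 tested genes, of which 0 passed (0.00% called, smallest adjusted p = 0.931). At unadjusted p under 0.05 there was 1 member, Ugt49B1, which is 4.76% of the 21, where 4.68% of all tested genes reached that level. The control mean of Ugt49B1, 2.58, lay below the limit of 2.63, so it was among the 21 only through its juice values. The share of members thus counts a gene let in by the group in which it was higher. Over all 35 members, 17 had a higher and 18 a lower mean in juice larvae, and the median difference, juice minus control, was -0.010 on the log2 scale, beside -0.019 over all 13401 genes. The juice pools lay wholly above the control pools in 2 members, Ugt49B1 and Ugt304A1, and wholly below them in 0. Together these are 5.71% of the 35, where the groups did not overlap in 9.82% of all genes.

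How large a difference could have gone unseen differed between members. The 95% interval of the difference, from limma without the limit on dim genes, lay within a 2-fold change in either direction for 29 of 35 members (82.9%), as it did for 88.5% of all genes. The 6 exceptions were Ugt37A2 and Ugt49B1 on the higher side and Ugt305A1, Ugt36D1, Ugt301D1 and Ugt303B3 on the lower side, so for these a 2-fold difference lay inside the interval. For the 14 members below the limit, differences ran from -0.16 to 0.10 and the intervals reached from -0.49 to 0.50. At such low values an array compresses differences, so these intervals hold for the measured values.

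**Figure D2:**
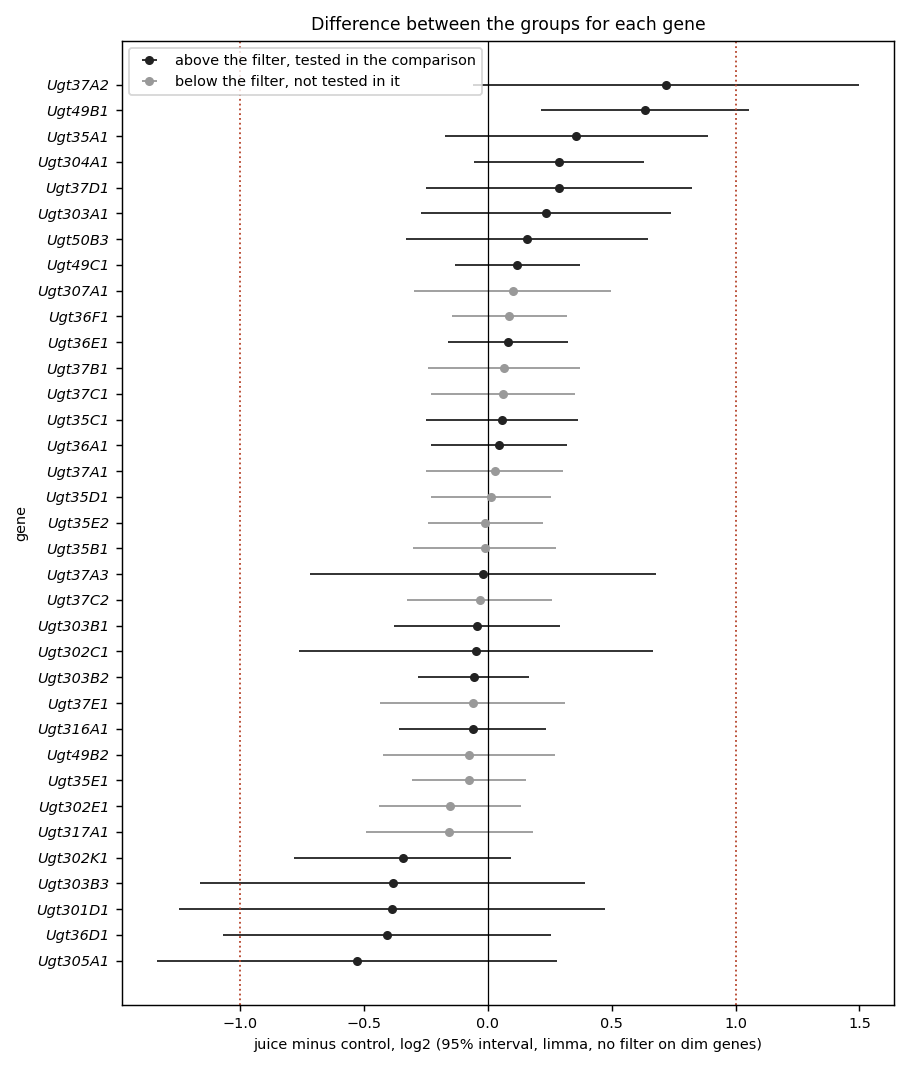
Difference between the groups, juice minus control on the log2 scale (horizontal axis), with its 95% interval for each of the 35 genes (rows), from limma without the limit on dim genes. Black marks the 21 genes above the limit and grey the 14 below it. The dotted lines mark a 2-fold difference, and the interval of Ugt49B1 is the only one here that leaves out 0.

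Among the members with a higher mean in juice larvae, Ugt49B1 had the smallest unadjusted p. Its log2 values were 3.35, 3.45 and 2.84 in juice pools and 2.52, 2.64 and 2.58 in control pools. All juice pools were above all control pools, with juice replicates 1 and 2 well above and juice replicate 3 only just. The means were 3.22 ± 0.33 in juice and 2.58 ± 0.06 in control larvae (SD, n = 3 each). The difference was 0.63 ± 0.19 (SE; 95% interval 0.19 to 1.07), a 1.55-fold ratio, with unadjusted p = 0.0113 and adjusted p = 0.931 by limma. The control mean lay below the limit of 2.63, so Ugt49B1 was tested only because its juice values were higher. With 1 array left out at a time its difference stayed between 0.51 and 0.82. Its unadjusted p was under 0.05 in 14 of 15 settings, the exception being control replicate 1 and juice replicate 2 left out together (difference 0.49, unadjusted p = 0.0662 by limma), and its adjusted p was 0.408 to 0.998. The neighbour of Ugt49B1, Ugt49C1, measured 3.13, 2.90 and 2.97 in juice pools and 2.92, 2.85 and 2.89 in control pools. There the groups overlapped, and the difference was 0.12 ± 0.13 (SE).

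The largest difference was that of Ugt37A2, at 3.88, 3.23 and 2.58 in juice pools against 2.71, 2.58 and 2.25 in control pools. Juice replicates 1 and 2 lay above every control pool and juice replicate 3 among them. The difference was 0.72 ± 0.32 (SE), a 1.65-fold ratio (limma, unadjusted p = 0.0589, adjusted p = 0.931). It was 0.39 with juice replicate 1 left out (limma, unadjusted p = 0.170). With juice replicate 3, the lowest juice pool, left out it was 1.05, at unadjusted p = 0.00651 and adjusted p = 0.692 by limma. The unadjusted p was under 0.05 in 3 of 15 settings and ran up to 0.170. Ugt37A2 likewise passed the limit on dim genes only through its juice values, since its control mean was 2.51. The adjacent Ugt37A3 showed another order of pools, with 6.45, 5.62 and 5.62 in juice larvae and 5.56, 5.86 and 6.32 in control larvae. Its high pools were juice replicate 1 and control replicate 3, and the difference was -0.02 ± 0.29 (SE; 95% interval -0.70 to 0.66).

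Ugt304A1, Ugt303A1 and Ugt37D1 were highest in juice replicate 2, as was Ugt49B1. Ugt304A1 measured 3.07, 3.47 and 3.04 in juice pools and 2.91, 2.85 and 2.96 in control pools, so the groups were apart by a narrow margin. Its difference was 0.29 ± 0.16 (SE), and 0.15 without juice replicate 2. Ugt303A1, its neighbour in the run of 10, measured 2.90, 3.62 and 2.97 in juice pools and 2.81, 3.09 and 2.89 in control pools. The groups overlapped, and its difference of 0.23 ± 0.22 (SE) became 0.01 without juice replicate 2. Ugt37D1 measured 2.98, 3.42 and 2.54 in juice pools and 2.76, 2.77 and 2.55 in control pools. Its difference was 0.29 ± 0.23 (SE), which became 0.07 when juice replicate 2 was left out and 0.51 when juice replicate 3 was. Juice replicate 2 deviated 2-fold or more from the average of the remaining arrays in 440 of the 10051 tested genes and control replicate 1 in 536, where each of the other arrays did so in 54 to 178. Over all 13401 genes, juice replicate 2 was that far above in 119 and below in 321, and control replicate 1 above in 497 and below in 42.

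Ugt35A1 is a relative of the antennal Ugt35B1, and the only member of family 35 beside Ugt35C1 above the limit on dim genes. It measured 5.76, 5.50 and 5.77 in juice pools and 5.15, 5.80 and 5.02 in control pools. The juice pools lay close together, and control replicate 2 was the highest pool of all. The difference was 0.36 ± 0.23 (SE; limma, unadjusted p = 0.159), and 0.60 without control replicate 2. Ugt35C1, formerly Ugt86Dd and known for its part in nicotine resistance of larvae, measured 3.38, 3.33 and 3.42 in juice pools and 3.55, 3.25 and 3.17 in control pools. The control pools spanned the juice pools, with a difference of 0.06 ± 0.15 (SE; 95% interval -0.29 to 0.41).

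On the lower side, 3 of the 5 members with the smallest p had 1 control pool far above all other pools. Ugt305A1 measured 5.36, 5.38 and 5.38 in juice pools and 6.72, 5.36 and 5.63 in control pools. Control replicate 1 stood 1.30 above the mean of the other arrays, and the juice pools differed among themselves by an SD of only 0.01. The difference was -0.53 ± 0.33 (SE; limma, unadjusted p = 0.155) and -0.12 without control replicate 1. The summed linear level of 13 testis marker genes was 276 to 470 in juice pools and 1009, 252 and 404 in control replicates 1 to 3, so the same control pool was the highest. Of the 9 testis markers tested, 9 had a lower mean in juice larvae, and their part in the values of Ugt305A1 was not tested.

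Ugt36D1 and Ugt301D1 were both highest in control replicate 3. Ugt36D1 measured 6.19, 6.28 and 6.19 in juice pools and 6.38, 6.21 and 7.29 in control pools. Ugt301D1 measured 6.92, 6.71 and 6.48 in juice pools and 6.72, 6.61 and 7.94 in control pools. In each gene 5 pools lay close together and control replicate 3 stood apart, by 1.04 in Ugt36D1 and 1.25 in Ugt301D1 above the mean of the other arrays. The differences were -0.41 ± 0.28 and -0.39 ± 0.35 (SE). Without control replicate 3 they were -0.08 and 0.04, so the sign of Ugt301D1 turned. The direct neighbours of Ugt36D1 showed no such high pool in their measured values. Ugt36F1 measured 2.30 and Ugt36E1 2.84 in control replicate 3, against 2.30 to 2.38 and 2.84 to 2.88 in the remaining control pools. Their means over all arrays were 2.37 and 2.89, the first below the limit on dim genes and the second near it. At such low values an array compresses differences, so whether these neighbours share the rise cannot be told. Ugt36E1, known from olfactory neurons that sense pheromone, had a difference of 0.08 ± 0.13 (SE).

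Ugt303B3 and Ugt302K1 were low in juice replicate 2. Ugt303B3 measured 4.94, 3.80 and 5.02 in juice pools and 5.05, 5.04 and 4.83 in control pools. Only juice replicate 2 was low, at -1.17 relative to the mean of the other arrays, and without it the difference of -0.38 ± 0.32 (SE) became 0.01. Its neighbour Ugt303B2 measured 2.79, 2.77 and 2.79 in juice pools and 2.82, 2.91 and 2.79 in control pools, with a difference of -0.06 ± 0.12 (SE). Ugt303B1, the gene between them, differed by -0.05 ± 0.16 (SE), and in both neighbours juice replicate 2 was the lowest pool as well, at 4.04 in Ugt303B1. Ugt302K1 measured 2.75, 2.65 and 3.18 in juice pools and 3.07, 3.46 and 3.09 in control pools. Juice replicates 1 and 2 lay below every control pool and juice replicate 3 among them. Its difference was -0.34 ± 0.19 (SE; limma, unadjusted p = 0.118), and it ran from -0.50 without juice replicate 3 to -0.22 without control replicate 2. The remaining members of family 302 also had lower juice means, with differences of -0.15 for Ugt302E1, fitted without the limit on dim genes, and -0.05 ± 0.30 (SE) for Ugt302C1.

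Among the other members, Ugt316A1 measured 5.68, 5.79 and 5.99 in juice pools and 5.83, 5.82 and 6.01 in control pools, a difference of -0.06 ± 0.15 (SE; 95% interval -0.40 to 0.28). Ugt50B3 measured 5.40, 4.93 and 5.39 in juice pools and 5.15, 5.35 and 4.75 in control pools, with a difference of 0.16 ± 0.21 (SE). Ugt36A1, formerly Dot, whose regulatory DNA is used to mark pericardial cells and the lymph gland, measured 2.87, 2.74 and 2.65 in juice pools and 2.78, 2.77 and 2.58 in control pools. In all 3 genes the groups overlapped.

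A range of at least 1 log2 unit over the 6 arrays was found in 5 members (14.3% of 35, where 15.6% of all genes had one), namely Ugt37A2, Ugt301D1, Ugt305A1, Ugt303B3 and Ugt36D1. In 20 members the range was under 0.5. The highest pool was a juice replicate in 18 members (9 in replicate 1, 8 in replicate 2 and 1 in replicate 3) and a control replicate in 17 (4 in replicate 1, 4 in replicate 2 and 9 in replicate 3). Per array, the median deviation of the members from their own means was 0.04, -0.02 and -0.07 in juice replicates 1 to 3 and -0.02, -0.03 and -0.05 in control replicates 1 to 3.

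**Figure D3:**
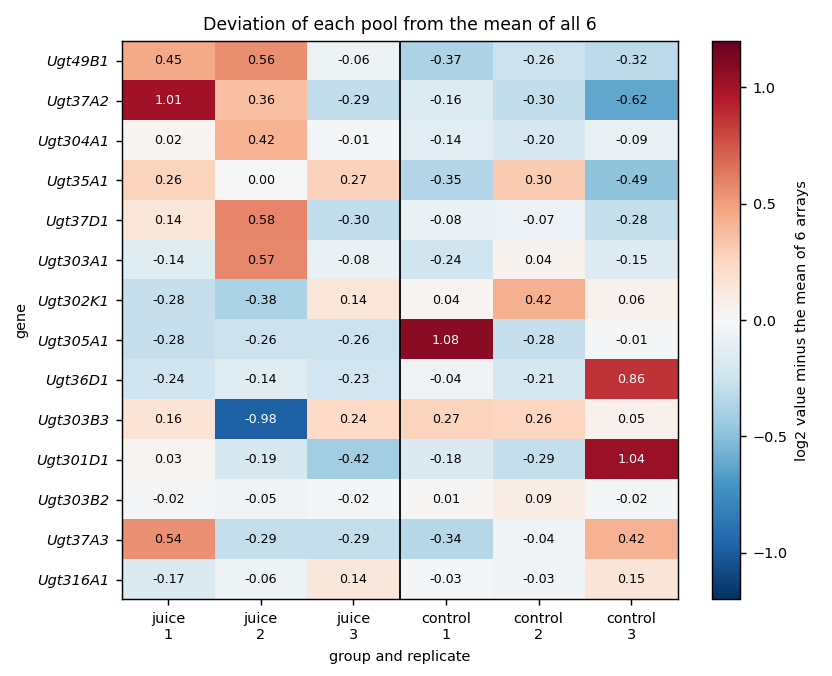
Log2 value minus the gene's mean over all 6 arrays (colour and printed number) for the 14 genes named by the rule (rows) in juice and control replicates 1 to 3 (columns). Single pools carry the large deviations: juice replicate 1 in Ugt37A2, juice replicate 2 in Ugt303B3, control replicate 1 in Ugt305A1 and control replicate 3 in Ugt36D1 and Ugt301D1.

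The enzymes act within a wider pathway, and lists of its genes were set beside them. None of the genes of any of these lists passed limma's test (adjusted p of at least 0.931). Among the enzymes and transporters that make and carry nucleotide sugars, 9 genes were tested, of which 2 reached unadjusted p under 0.05, both higher in juice larvae (2.68% of all tested genes did so on that side), and the median difference was 0.23. UGP, which makes UDP-glucose, measured 6.20, 6.14 and 5.70 in juice pools and 5.55, 5.67 and 5.45 in control pools. Its juice pools lay above all control pools. Pgm1, the phosphoglucomutase one step earlier, measured 6.78, 7.54 and 6.34 in juice pools and 5.73, 6.38 and 6.19 in control pools, with juice replicate 3 below control replicate 2. The list also held GDP-fucose transporters.

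A list of other genes that draw on UDP-sugars had 2 of 7 tested members at unadjusted p under 0.05, again both higher. On that side 2.68% of all tested genes did so, and the median difference of the list was 0.27. Glys, glycogen synthase, which also consumes UDP-glucose, measured 7.65, 7.74 and 7.49 in juice pools and 7.16, 7.26 and 6.96 in control pools. No juice pool overlapped a control pool. The chitin synthase kkv, which uses UDP-N-acetylglucosamine, differed by 0.55 ± 0.22 (SE). The median difference over all tested genes was -0.03. Over the 21 tested UDP-glycosyltransferases, the set chosen like the lists, it was 0.04, with Ugt37A2 and Ugt49B1 among them only through their juice values. Over all 35 UDP-glycosyltransferases without the limit on dim genes it was -0.010.

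Genes that act before or beside the UDP-glycosyltransferases in detoxification had 2 of 29 cytochrome P450s of 4 families (Cyp6, Cyp9, Cyp12 and Cyp28), 1 of 28 glutathione S-transferases, 1 of 11 transporters of the ABC and Oatp families and 0 of 2 sulfotransferases at unadjusted p under 0.05, all of them higher in juice larvae. The median differences were 0.09, 0.07, 0.18 and -0.10 in that order. On the higher side, 2.68% of all tested genes reached unadjusted p under 0.05 by limma. GstE1, a conjugating enzyme that attaches glutathione, measured 5.81, 5.98 and 5.41 in juice pools and 4.71, 5.18 and 5.17 in control pools, without overlap. Cyp12e1 and Cyp9c1, oxidases of the first phase, differed by 0.52 ± 0.21 and 0.48 ± 0.20 (SE), and the organic anion transporter gene Oatp58Da by 0.39 ± 0.14 (SE). Of 7 regulators of the xenobiotic response, among them cnc, Keap1 and Hr96, 1 reached unadjusted p under 0.05 with a lower mean in juice larvae (2.00% of all tested genes did so on that side), tgo, a partner of bHLH-PAS factors, which differed by -0.44 ± 0.19 (SE). Of beta-glucuronidases, which remove glucuronic acid and not glucose, 0 of 2 did, and betaGlu differed by -0.24 ± 0.17 (SE).

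**Figure D4:**
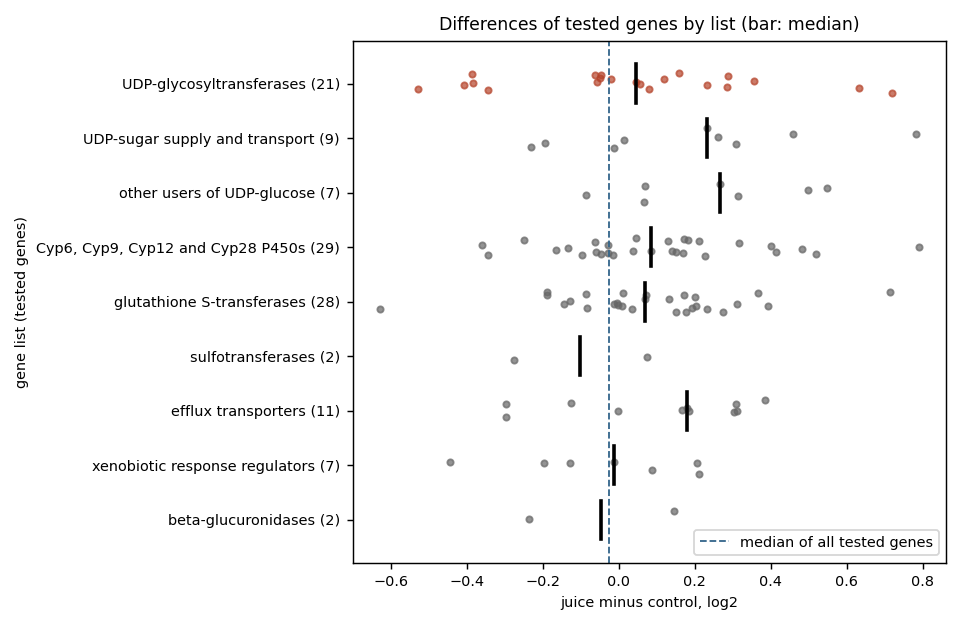
Difference between the groups, juice minus control on the log2 scale (horizontal axis), of each tested gene (points) in the UDP-glycosyltransferase family and in lists of related genes (rows, number of tested genes in brackets), with the median of each list as a bar. The dashed line is the median of all tested genes at -0.03, and the 21 UDP-glycosyltransferases spread from -0.53 to 0.72 on both sides of it; their bar includes Ugt37A2 and Ugt49B1, which were above the limit on dim genes only through their juice values.

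Organ and stage markers, measured in the same pools, were as follows. The summed linear level of 7 Malpighian tubule markers was 1295 to 1581 in juice pools and 989 to 1124 in control pools. Of the 6 that were tested, 6 had a higher juice mean, and 2 reached unadjusted p under 0.05, both higher (2.68% of all tested genes did so on that side): Irk3, a potassium channel, with a difference of 0.56 ± 0.17 (SE), and Fst, with 0.39 ± 0.15 (SE). Most of each summed tubule level came from Fst, so the sums mainly follow that gene. Its log2 values were 10.19, 10.47 and 10.23 in juice pools and 9.78, 9.99 and 9.95 in control pools. Muscle markers summed to 9198 to 11864 in juice pools and 7155 to 8518 in control pools, and 5 of 5 had a higher juice mean. Of these 5, 4 reached unadjusted p under 0.05, all higher (2.68% of all tested genes did so on that side). For 12 genes that respond to ecdysone, the moulting hormone, the sums were 1674 to 3075 in juice pools and 3428 to 4259 in control pools, with 9 of 12 lower in juice larvae and 5 of them at unadjusted p under 0.05 (2.00% of all tested genes on that side). The lowest of these sums was in juice replicate 2 and the highest in control replicate 3, the pools that stood apart in Ugt303B3 and in Ugt36D1 and Ugt301D1. Salivary gland markers summed to 7442 to 9872 in juice pools and 10232 to 10821 in control pools, and 6 of 6 had a lower juice mean. At unadjusted p under 0.05 there was 1 of the 6 (2.00% of all tested genes on the lower side), the glue protein gene Sgs4, with a difference of -0.60 ± 0.19 (SE). Nervous system markers, at 162 to 265 in juice pools and 201 to 224 in control pools, had 4 of 8 members lower in juice larvae. Of the 8, 1 was at unadjusted p under 0.05, on the lower side (2.00% of all tested genes there). It was the neuronal cadherin gene CadN, with a difference of -1.07 ± 0.31 (SE). Midgut markers (6510 to 8100 in juice pools, 6769 to 8746 in control pools) overlapped. Sums for fat body markers were 11105 to 12822 in juice pools and 13211 to 14131 in control pools, and for 10 chemosensory markers 3080 to 4511 in juice pools and 3572 to 4515 in control pools. At unadjusted p under 0.05 there were 0 of 11 tested midgut markers, 0 of 5 fat body markers, 1 of 8 chemosensory markers, higher, and 1 of 9 testis markers, lower. Of all tested genes, 2.68% reached that level on the higher side and 2.00% on the lower side. The part of these markers in the values of the UDP-glycosyltransferases was not tested.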

How the data were processed

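RNA of whole larvae was measured on 6 arrays. The authors deposited log2 expression values made with Affymetrix Expression Console 1.4.0.38 and RMA, per the submitters' processing notes, and any filter is not given in the sources used here. RMA as generally defined brings the arrays to a common distribution, so a shift of most genes in 1 direction would be removed. Depth has no meaning for arrays, and the 3 arrays per group limit the precision.

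Of 16322 rows, 13440 had 1 gene in the platform annotation, and the brightest row was kept for each of 13401 genes. After leaving out the dimmest 25%, 10051 genes were fitted with limma 3.58.1 in R 4.3.3 (lmFit and eBayes, juice minus control, no covariate, two-sided), with Benjamini-Hochberg adjustment over all of them. The fit was also run on simulated data with independent errors per gene, so arrays that deviate in many genes together were not simulated. No conclusion is drawn from that run here. Limma's p-values rest on the spread among pools, drawn for each gene toward that of all fitted genes. Part of this spread may be technical. Values with all pools are given for all members past the adjusted threshold (none), the 6 members with the smallest p on each side, the 6 brightest and the 4 with the largest range, and for others where they are neighbours or have a known role, chosen after their values were seen. Of each list, up to 4 genes at unadjusted p under 0.05 were eligible, or else the 1 with the smallest p. Members and lists were chosen with earlier results of these data known. Alternatives were each array left out, the fit with the replicate number as a block, no filter or a stricter one, quantile normalization, equal medians, a variance trend, array weights and averaged rows. Sequences were not used here, and genome coordinates served only to order the genes.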

Additional observations from a re-analysis of the deposited data

How the results depend on the processing

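The count of members past adjusted p under 0.05 was 0 under each of 15 alternatives, and the smallest adjusted p of a member under any of them was 0.408. For all tested genes the count ran from 0 to 4 with 1 array left out, the 4 being without juice replicate 3. For the count at unadjusted p under 0.05, Ugt49B1 and Ugt37A2 were above the limit on dim genes only through their juice values. That count, 1 of 21 with all arrays, ran from 1 to 4 with 1 array left out. It was 4 without juice replicate 3 (Ugt49B1, Ugt37A2, Ugt37D1 and Ugt302K1, where 5.53% of all tested genes reached that level) and 3 without control replicate 2 (Ugt49B1, Ugt35A1 and Ugt305A1, with 5.70%). It was 2 with a variance trend (4.61% of all tested genes), and 0 of 10 with the dimmer 50% left out (5.07%), where Ugt49B1 was not tested. It was also 0 without control replicate 1 and juice replicate 2 together (4.52%), an alternative chosen after seeing the data. With the replicate number as a block it was 2 (4.82%). Correlations of same-numbered deviations were -0.108, -0.0738 and -0.0816, and no pool correlated best with its own number. With 3 pools a group, such correlations cannot exclude a pairing by number. The median difference over tested members, 0.04, was -0.010 with no filter, -0.055 with the dimmer 50% left out, and -0.00036 to 0.082 with 1 array left out. It was 0.067 with quantile normalization and 0.084 with equal array medians. Of 14 named members, 9 kept their sign under all alternatives that gave a value. Ugt301D1 turned to 0.037 without control replicate 3 (-0.63 to 0.037 with 1 array left out). Ugt37A3 (-0.30 to 0.18) turned to 0.18 without control replicate 3, 0.12 without juice replicate 2, 0.12 without juice replicate 3 and 0.019 with equal array medians. Ugt316A1 (-0.15 to 0.0082) turned to 0.0082 without juice replicate 1. Ugt303B3 (-0.60 to 0.0084) turned to 0.0084 without juice replicate 2 and 0.046 without that pool and control replicate 1, where Ugt303A1 turned to -0.056. The cause was not tested. Low signal limits the 14 members below the filter.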
